A study of Mus musculus with 8 samples.

Results

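The CRTC coactivators, the CREB factors they bind and the SIK kinases that hold them in the cytoplasm were followed at the RNA level in 2 tissues, liver and the white fat around the epididymis (eWAT). The 9 genes, taken by symbol, were Crtc1, Crtc2, Crtc3, Creb1, Crem, Atf1, Sik1, Sik2 and Sik3, of 19348 genes in the tables, and each had counts in all 8 libraries. RNA-seq was made from male C57BL/6 mice aged 12 weeks, kept on a normal diet and fasted for 16 h, either homozygous for a whole-body CRISPR/Cas9 deletion of Crtc1 (Crtc1-/-) or wild type (Crtc1+/+). Each of the 4 groups of tissue and genotype held 2 libraries, described as independent biological replicates, and the deletion was not limited to a cell type. The libraries held 16560085 to 19721481 counts each.

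In fasting, glucagon and catecholamines raise cAMP, and protein kinase A phosphorylates CREB and inactivates the SIKs. CRTC proteins, which SIK phosphorylation keeps bound to 14-3-3 proteins in the cytoplasm, then enter the nucleus and bind CREB at cAMP response elements. In liver this pathway is known for driving gluconeogenic genes, and in fat for the response to catecholamines, where SIK2 is the best known SIK. Protein location and phosphorylation, through which the pathway mainly works, were not measured here. RNA from a piece of tissue cannot tell fewer cells of a type from less RNA per cell.

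The exons targeted in Crtc1 are shown first, to set what a gene count can tell of the deletion. The study placed its guides at exons 2 and 4 of Crtc1 (NCBI Gene 382056), a minus-strand gene at 70382355 to 70439579 of chromosome 8 (GRCm38). In the GENCODE transcript of 14 exons these 3 coding exons hold 317 of 5683 nt, or 5.58%, so a count over the whole gene mostly reads the RNA outside them and cannot check the deletion. Exon 2 spans 70408895 to 70409011, exon 3 spans 70406078 to 70406215 and exon 4 spans 70405259 to 70405320, written here 5′ to 3′ on the coding strand.
Crtc1 exon 2: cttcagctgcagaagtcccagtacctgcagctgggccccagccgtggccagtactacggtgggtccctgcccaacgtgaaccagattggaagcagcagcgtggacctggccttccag
Crtc1 exon 3: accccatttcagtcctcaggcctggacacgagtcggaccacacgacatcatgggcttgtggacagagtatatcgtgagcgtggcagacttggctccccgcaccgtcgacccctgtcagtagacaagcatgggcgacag
Crtc1 exon 4: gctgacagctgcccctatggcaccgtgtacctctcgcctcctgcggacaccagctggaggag

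Promoters are shown for the 3 genes that held the half-site of the cAMP response element, the sequence CREB factors are known to bind. RefSeq (GRCm38.p6) gave promoters of 300 bases for 6 of the 9 genes, Crtc1, Crtc3, Creb1, Atf1, Sik2 and Sik3, and none was matched for Crtc2, Crem and Sik1. The half-site TGACG or its complement CGTCA occurred in Sik3 (3 times), Sik2 (2 times) and Atf1 (1 time), and in 20.8% of all 32851 promoters of the same length. The full element TGACGTCA, which contains the half-site on both strands, was in none of the 6 and in 1.79% of all promoters. The windows below run from 150 bases before to 30 bases after the annotated start, on the strand of the gene, with half-sites in capitals. They lie on chromosome 9 from 51009044 to 51009223 (minus strand) for Sik2, on chromosome 9 from 46012670 to 46012849 (plus strand) for Sik3, and on chromosome 15 from 100227709 to 100227888 (plus strand) for Atf1.
Sik2: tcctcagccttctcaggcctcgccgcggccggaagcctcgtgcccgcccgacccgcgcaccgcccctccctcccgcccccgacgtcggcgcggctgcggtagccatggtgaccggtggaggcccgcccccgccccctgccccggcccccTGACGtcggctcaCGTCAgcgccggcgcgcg
Sik3: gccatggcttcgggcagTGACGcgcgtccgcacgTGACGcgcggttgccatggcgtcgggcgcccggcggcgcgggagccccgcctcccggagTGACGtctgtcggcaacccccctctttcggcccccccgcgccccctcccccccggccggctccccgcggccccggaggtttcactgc
Atf1: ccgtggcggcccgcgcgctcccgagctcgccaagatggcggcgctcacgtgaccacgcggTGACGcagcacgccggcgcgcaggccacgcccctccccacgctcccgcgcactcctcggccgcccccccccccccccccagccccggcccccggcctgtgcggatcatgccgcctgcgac
Such a match is a string of letters and not a bound site. No binding was measured, and a window without it says nothing of CREB.

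The 8 libraries differed in the cell types they sampled. A list of 12 adipocyte markers, among them Adipoq and Fabp4, held 0.264% and 0.419% of the counts in the eWAT libraries labelled Crtc1+/+ and 4.78% and 2.30% in the eWAT libraries labelled Crtc1-/-. A list of 32 epididymis markers held 9.35% and 10.7% of the counts in the eWAT libraries labelled Crtc1+/+, against 0.00774% and 0.00179% in the eWAT libraries labelled Crtc1-/-, where 13 of the 32 markers were at or under 3 counts in each library. The eWAT library labelled Crtc1-/- replicate 2 gave 10.1% of its counts to 13 hepatocyte markers, against 0.0747% to 0.608% in the other eWAT libraries and 18.7% to 23.0% in liver. Endothelial markers were at 0.0268% and 0.0272% in the eWAT libraries labelled Crtc1+/+ and at 0.372% and 0.225% in the eWAT libraries labelled Crtc1-/-, and macrophage markers at 0.0218% and 0.0110% against 0.0746% and 0.0355%. In eWAT labelled Crtc1-/-, 9 of 12 adipocyte, 6 of 6 endothelial and 2 of 6 macrophage markers were called higher, and 27 of 32 epididymis and 3 of 8 sperm markers lower, by edgeR at an adjusted p under 0.05, while 0 of 13 hepatocyte markers were called, and in liver no marker of these lists was. These shares moved with the eWAT labels, and their part in the differences below was not tested. With 2 libraries against 2, no permutation p below 0.333 is possible, so the tests were edgeR's quasi-likelihood fits across all genes.

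In eWAT, Sik2, the kinase abundant in fat cells, was the single gene of the 9 that passed the test between genotypes. Its transcript was at 199 and 249 CPM in the eWAT libraries labelled Crtc1-/- (224 ± 35.9, SD, n = 2) and at 24.7 and 56.2 CPM in the eWAT libraries labelled Crtc1+/+ (40.5 ± 22.3, SD, n = 2). CPM are counts scaled to the size of the library with edgeR's TMM factors within a tissue. The 2 groups did not overlap, and the libraries labelled Crtc1+/+ differed more from each other in proportion than those labelled Crtc1-/-. Sik2 was 5.54-fold higher in the eWAT libraries labelled Crtc1-/- (log2 fold change 2.47, standard error 0.49, edgeR adjusted p = 0.0411). The Sik2 counts were not whole numbers in 6 of the 8 libraries, which a gene whose reads are split with another feature would have, so its level carries that uncertainty.

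Sik2 was not called in every fit with 1 eWAT library left out, and its estimate stayed above 0 in all of them. Such a fit leaves 1 library in a group, and the calls over all genes moved widely in these fits. A call kept or lost there therefore does not show what the Sik2 call rests on. The log2 fold change was 2.02 without eWAT Crtc1+/+ replicate 1 and 3.20 without replicate 2 of that group. It was 2.63 without eWAT Crtc1-/- replicate 1 and 2.24 without replicate 2, the library rich in hepatocyte markers. Per count of the adipocyte list, whose share was itself higher in eWAT labelled Crtc1-/-, all 9 genes were lower in those libraries. Sik2 had 10.6 and 14.7 counts per 1000 counts of the adipocyte list in the eWAT libraries labelled Crtc1+/+ and 4.09 and 8.86 in the eWAT libraries labelled Crtc1-/-. Scaled on that list, a setting chosen after seeing the data, the log2 fold change of Sik2 was -0.97 (standard error 0.71, edgeR adjusted p = 0.185), while the median of all genes was at -3.69, so Sik2 lay 2.72 above the median and the sign came with the scaling.

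Sik3 and Sik1 lay close to the threshold on the same side. Sik3, which LKB1 activates like the other SIKs, was at 76.1 and 77.3 CPM in the eWAT libraries labelled Crtc1-/- and at 29.7 and 35.6 CPM in the eWAT libraries labelled Crtc1+/+. The groups stood apart (log2 fold change 1.23, standard error 0.27, edgeR adjusted p = 0.0506). Sik1, the SIK that is itself induced by cAMP, was at 45.6 and 56.8 CPM against 20.8 and 24.3 CPM. Its groups did not overlap either, and its log2 fold change was 1.18 (standard error 0.30, edgeR adjusted p = 0.0674).

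Among the coactivators in eWAT, Crtc2 and Crtc3 had separate groups and Crtc1 did not. Crtc2, the main hepatic CRTC, was at 81.6 and 75.5 CPM in the eWAT libraries labelled Crtc1-/- and at 38.2 and 36.7 CPM in the eWAT libraries labelled Crtc1+/+ (log2 fold change 1.07, standard error 0.26, edgeR adjusted p = 0.0605). Crtc3, a coactivator with a known role in catecholamine signalling in fat, was at 41.6 and 35.0 CPM against 24.2 and 22.6 CPM (log2 fold change 0.71, standard error 0.30, edgeR adjusted p = 0.172). Both Crtc2 libraries labelled Crtc1-/- were near one another and clearly above the other group, while the Crtc3 groups lay closer together.

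The 2 eWAT libraries labelled Crtc1-/- differed from each other in Crtc1 itself. It was at 58.5 and 33.6 CPM in those libraries and at 32.6 and 33.7 CPM in the eWAT libraries labelled Crtc1+/+. One library labelled Crtc1-/- stood above the rest, and the place of the other depended on the scaling. It lay within the wild-type range in TMM-scaled CPM and below it in FPKM, at 4.95 against 6.69 and 6.78, and in CPM by library total, at 27.5 against 36.9 and 36.9. On the TMM scale the log2 fold change was 0.48 (standard error 0.37, edgeR adjusted p = 0.396). The count spans the whole gene and does not tell exons apart.

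None of the CREB factors passed the test in eWAT, and the groups overlapped for Creb1 and Crem. Creb1, the founding factor of the family, was at 15.6 and 21.0 CPM in the eWAT libraries labelled Crtc1-/- and at 13.6 and 18.6 CPM in the eWAT libraries labelled Crtc1+/+, and Crem, which encodes both activators and the cAMP-induced repressor ICER, was at 11.2 and 8.82 CPM against 10.6 and 6.17 CPM. For both genes the ranges of the 2 groups overlapped, with log2 fold changes of 0.18 and 0.25 (standard errors 0.38 and 0.47, edgeR adjusted p = 0.755 and 0.729) that turned to -0.14 and -0.047 under library-size scaling. Atf1, a close relative of CREB1, was at 7.26 and 8.47 CPM against 10.1 and 12.4 CPM. It was the single gene of the 9 with a lower estimate in the eWAT libraries labelled Crtc1-/-, its groups did not overlap, and its log2 fold change was -0.51 (standard error 0.40, edgeR adjusted p = 0.401).

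Over the 9 genes in eWAT, 1 was called at an adjusted p under 0.05, or 11.1%, against 12.2% of the 15391 genes tested and 6.65% called higher. At an unadjusted p under 0.05 there were 4 of 9, against 33.3% of all genes. At the threshold of the study, a change of more than 1 on the log2 scale in either direction and an unadjusted p below 0.01, Crtc2, Sik2 and Sik3 passed, 3 of 9, against 15.9% of all genes and 8.37% in the higher direction. The groups did not overlap for 6 of the 9 genes, against 66.6% of all genes. The shares called and not overlapping were near the background. The median log2 fold change was 0.71 over the 9 genes and -0.05 over all genes tested. DESeq2 called Crtc2, Sik1, Sik2 and Sik3, but over all 15391 genes it also called more, 4620 against 1875 with edgeR. With the epididymis markers left out edgeR called Crtc2 and Sik3 and not Sik2, whose log2 fold change was then 2.52 (adjusted p = 0.0507).

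**Figure D1:**
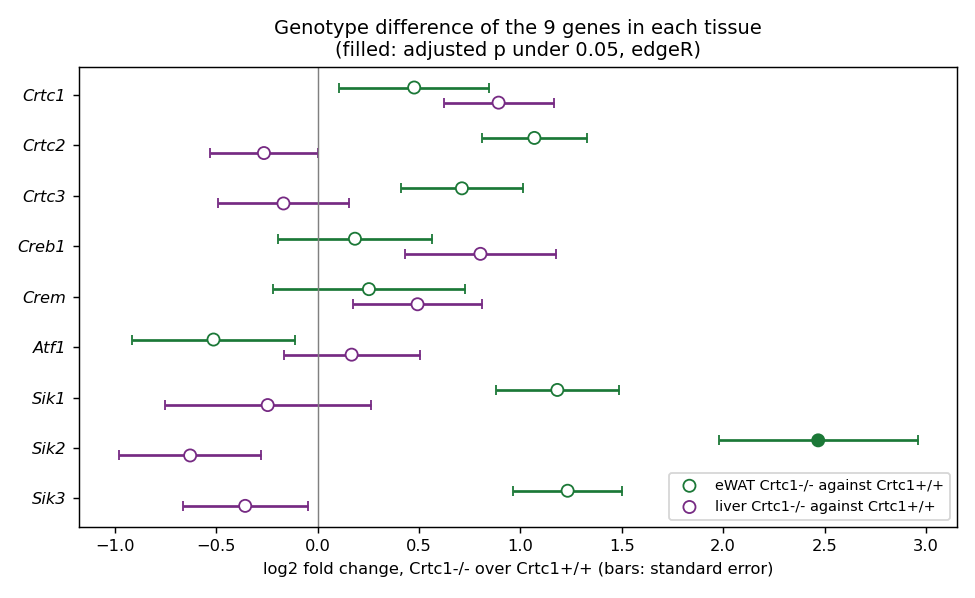
Log2 fold changes (horizontal axis) of the 9 genes between libraries labelled Crtc1-/- and Crtc1+/+ in eWAT (green) and liver (purple). Points are edgeR estimates from 2 libraries a group, bars are standard errors, and the filled point, Sik2 in eWAT at 2.47, is the 1 value with an adjusted p under 0.05.

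In liver, none of the 9 genes passed the test between genotypes, and the sizes of the SIK estimates turned on single libraries. The count was 0 of 9 with edgeR, against 0.0854% of the 11707 genes tested, and 0 of 9 with DESeq2. At an unadjusted p under 0.05, 1 of 9 passed, against 17.3% of all genes, and at the threshold of the study none did, against 4.27%. The one gene was Crtc1, at 22.1 and 18.0 CPM in the liver libraries labelled Crtc1-/- and 11.7 and 9.86 CPM in the liver libraries labelled Crtc1+/+. Both libraries labelled Crtc1-/- lay above both of the others (log2 fold change 0.89, standard error 0.27, edgeR adjusted p = 0.184).

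The other coactivators were level or spread within a group in liver. Crtc2 was at 22.2 and 16.3 CPM in the liver libraries labelled Crtc1-/- and at 22.5 and 23.8 CPM in the liver libraries labelled Crtc1+/+, 2 groups that did not overlap but nearly touched (log2 fold change -0.27, standard error 0.27, edgeR adjusted p = 0.626). Crtc3 was at 13.3 and 7.65 CPM against 12.8 and 10.8 CPM, with overlapping groups (log2 fold change -0.17, standard error 0.32, edgeR adjusted p = 0.816).

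The 3 CREB factors had estimates above 0 in liver. Creb1 was at 4.66 and 8.23 CPM against 3.44 and 3.94 CPM (log2 fold change 0.80, standard error 0.37, edgeR adjusted p = 0.302). Without liver Crtc1-/- replicate 1 the estimate was 1.17, which rests on the 1 library left in that group, at 8.23 CPM. With limma on log2(FPKM + 1) it was 0.24, the lowest value of any alternative. The Creb1 groups did not overlap, with 1 library well above the other 3. Crem was at 6.29 and 5.54 CPM against 4.01 and 4.41 CPM (log2 fold change 0.49, standard error 0.32, edgeR adjusted p = 0.436), again without overlap. Atf1 was at 4.14 and 5.02 CPM against 4.01 and 4.15 CPM, and its groups overlapped (log2 fold change 0.17, standard error 0.34, edgeR adjusted p = 0.824).

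Sik1 was the least repeatable of the SIKs in liver. Its values were 5.35 and 20.3 CPM in the liver libraries labelled Crtc1-/- and 12.7 and 17.6 CPM in the liver libraries labelled Crtc1+/+, so 1 group enclosed the other (log2 fold change -0.25, standard error 0.51, edgeR adjusted p = 0.828). Without liver Crtc1-/- replicate 1 the estimate was 0.43, and without replicate 2 of that group it was -1.51. Sik2 was at 5.14 and 3.09 CPM against 6.52 and 6.24 CPM, groups that did not overlap (log2 fold change -0.63, standard error 0.35, edgeR adjusted p = 0.376), at -1.03 without liver Crtc1-/- replicate 1 and -0.32 without replicate 2. Sik3 was at 29.4 and 16.4 CPM against 29.9 and 28.8 CPM, and the higher library labelled Crtc1-/- lay within the wild-type range (log2 fold change -0.36, standard error 0.31, edgeR adjusted p = 0.567). Its estimate was -0.83 without that higher library, liver Crtc1-/- replicate 1, and -0.0063 without replicate 2. In all, 5 of the 9 genes had groups that did not overlap in liver, against 52.1% of all genes, and the median log2 fold change was -0.17 over the 9 and 0.00 over all genes.

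The genotype difference of Sik2 itself differed between the tissues. The eWAT difference exceeded the liver difference by 3.04 on the log2 scale (standard error 0.62, edgeR adjusted p = 0.0354, all 8 libraries in 1 fit), and Sik2 was the 1 gene of 9 called for this interaction, against 6.94% of 15587 genes. The same quantity was 1.25 for Crtc2 (standard error 0.31, edgeR adjusted p = 0.0589) and 1.51 for Sik3 (standard error 0.43, edgeR adjusted p = 0.0784). For the other 6 genes it lay between -0.75 (Atf1) and 1.37 (Sik1), with adjusted p from 0.264 to 0.713. With 1 library left out, which leaves 1 in its group, the Sik2 interaction was 3.29 and 2.92 without either eWAT library labelled Crtc1-/-. It was 2.57 without eWAT Crtc1+/+ replicate 1, the lowest value of any alternative. Not every such fit kept the Sik2 call, and the calls over all genes moved widely too. With the replicate number as a block Crtc2 was called too (1.26, edgeR adjusted p = 0.0488).

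**Figure D2:**
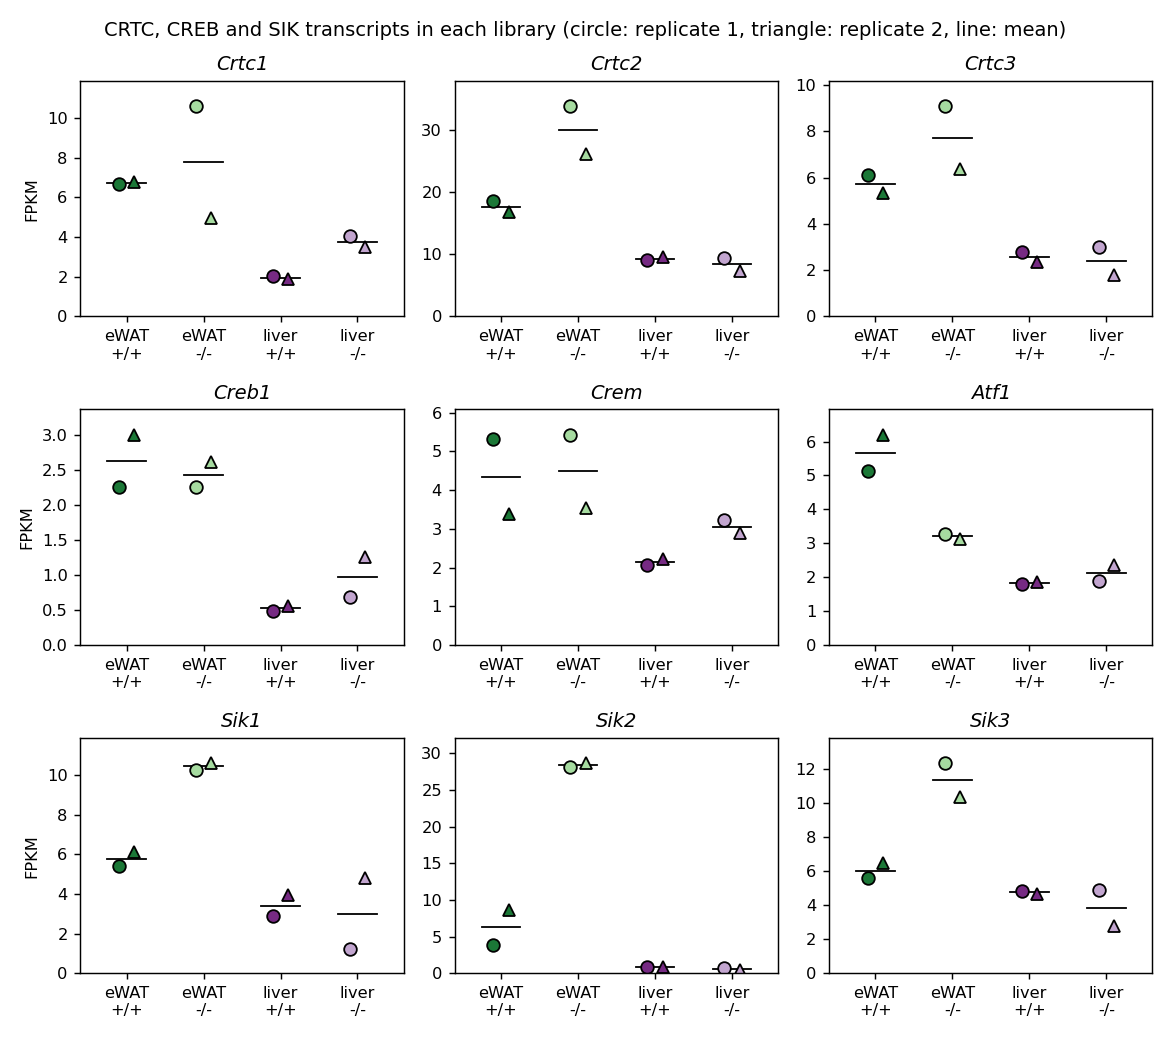
FPKM (vertical axis, from 0) of each of the 9 genes in each library, by tissue and genotype. Circles are replicate 1, triangles replicate 2 and lines group means. Sik2 at 28.1 and 28.7 FPKM in the eWAT libraries labelled Crtc1-/- stands apart from its other 6 values. Crtc1 in eWAT labelled Crtc1-/- is at 10.6 and 4.95 FPKM, on either side of the wild-type values of 6.69 and 6.78.

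To set the genes beside one another, FPKM were used, which scale counts by transcript length and library total. Crtc2 had the highest group mean of the 9 genes in all 4 groups, at 17.7 ± 1.26 and 30.04 ± 5.44 FPKM in the eWAT libraries labelled Crtc1+/+ and Crtc1-/-, and at 9.30 ± 0.354 and 8.40 ± 1.48 FPKM in the liver groups in the same order (SD, n = 2). In eWAT labelled Crtc1-/- Sik2 came next, at 28.4 ± 0.382 FPKM, and its values lay within the Crtc2 range of 26.2 to 33.9. Sik3 at 11.4 and Sik1 at 10.4 FPKM followed with overlapping ranges.

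In eWAT labelled Crtc1+/+ the genes after Crtc2 formed a close group. Crtc1, Sik2, Sik3, Sik1, Crtc3 and Atf1 had means between 6.74 and 5.67 FPKM, and the Sik2 range of 3.92 to 8.62 FPKM covered all of them. Creb1 was lowest in both eWAT groups, at 2.63 and 2.43 FPKM.

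In liver Sik3 came second, at 4.76 FPKM labelled Crtc1+/+ and 3.86 FPKM labelled Crtc1-/-. Its range in the latter, 2.81 to 4.91 FPKM, overlapped those of Crtc1, Crem, Sik1 and Crtc3. Creb1 (0.525 FPKM) and Sik2 (0.895 FPKM) were lowest in the liver libraries labelled Crtc1+/+ and did not overlap one another or any other of the genes. In liver labelled Crtc1-/- Sik2 was lowest at 0.580 FPKM, with a range that met that of Creb1 (0.680 to 1.25 FPKM).

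The share of Sik2 in the SIK family differed between groups, while Crtc2 was the largest part of the CRTC family in every library. Sik2 made up 55.4% and 57.7% of the summed SIK FPKM in the eWAT libraries labelled Crtc1-/-, 26.3% and 40.7% in the eWAT libraries labelled Crtc1+/+, and 5.47% to 10.7% in the 4 liver libraries, with no overlap between these 3 sets. The summed SIK level was 49.6 and 50.7 FPKM in the eWAT libraries labelled Crtc1-/-, 14.9 and 21.2 FPKM in the eWAT libraries labelled Crtc1+/+, and 6.86 to 9.46 FPKM in liver. With scaling to the library total, as in FPKM, the median of all genes was higher in eWAT than in liver. The log2 differences were 1.96 in mice labelled Crtc1+/+ and 1.17 in mice labelled Crtc1-/-. These sums alone therefore do not rank SIK levels between tissues. With TMM, in mice labelled Crtc1+/+, Sik3 and Sik1 were lower in eWAT than in liver (-1.15 and -0.73) and Sik2 was higher (1.36). Crtc2 made up 57.3% to 69.8% of the CRTC sum in every library. The Crtc1 share was 13.6% and 14.8% in the liver libraries labelled Crtc1+/+ and 24.6% and 27.7% in the liver libraries labelled Crtc1-/-, while in eWAT it was 21.3% and 23.5% against 19.8% and 13.2%. In the CREB family Atf1 made up 40.4% and 49.3% in the eWAT libraries labelled Crtc1+/+ and 29.9% and 33.7% in the eWAT libraries labelled Crtc1-/-.

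**Figure D3:**
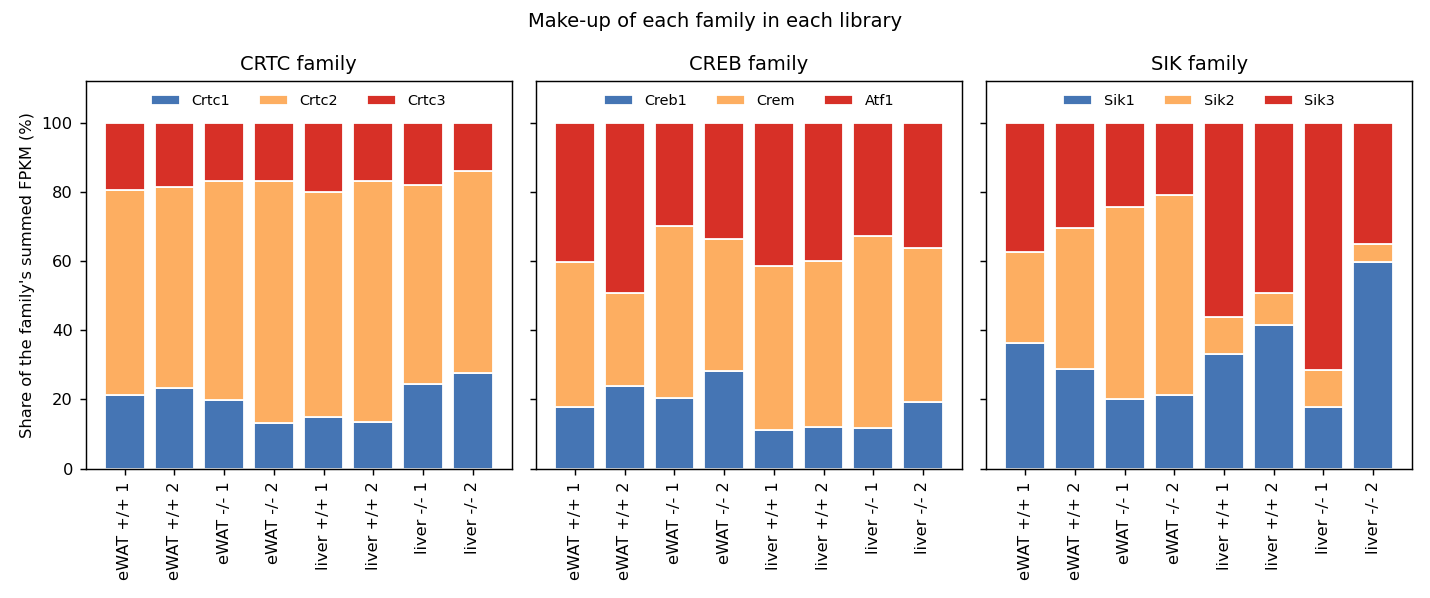
Share of the summed FPKM (vertical axis, percent) that each member of the CRTC, CREB and SIK families holds in each of the 8 libraries. Crtc2 is the largest part of the CRTC bar throughout, and the Sik2 part goes from 5.47% to 10.7% in liver to 55.4% and 57.7% in the eWAT libraries labelled Crtc1-/-.

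Between tissues, the direction of 5 of the 9 genes in mice labelled Crtc1+/+, and of 3 in mice labelled Crtc1-/-, turned from TMM to library-size scaling. The median log2 difference of all genes, eWAT over liver, was 0.48 in mice labelled Crtc1+/+ and 0.06 in mice labelled Crtc1-/- with TMM, and 1.96 and 1.17 with library-size scaling. The values are therefore given against that median. The methods describe 2 mice of each genotype from which both tissues were taken, so liver and eWAT libraries share animals, but no label says which library goes with which, and the fits were unpaired. In mice labelled Crtc1+/+, Sik2 was above the median by 0.88 (TMM log2 difference 1.36, standard error 0.42, edgeR adjusted p = 0.0350) and Sik3 was 1.63 below it (TMM log2 difference -1.15, standard error 0.21, edgeR adjusted p = 0.00548, but 0.34 with library-size scaling). Crtc2 was 1.09 below the median (-0.61, standard error 0.20, edgeR adjusted p = 0.0408, but 0.88 with library-size scaling). These 3 of 9 called genes stand against 59.8% of 15034 genes. The Crtc2 and Sik2 calls were lost without liver Crtc1+/+ replicate 1 or 2 or without eWAT Crtc1+/+ replicate 2 (edgeR adjusted p from 0.104 to 0.222), where the last gave a Sik2 difference of 0.66, and the Sik3 call was lost without liver Crtc1+/+ replicate 1 (adjusted p = 0.0551). With limma on log2(FPKM + 1) Sik2 was at 0.25 (adjusted p = 0.646) and Crtc2 at -0.23 (adjusted p = 0.249), neither called, while Crtc3, Crem, Sik1 and Sik3 were. The Crtc2 call was also lost with no filter, a mean count of at least 50 or all 8 libraries in 1 fit (edgeR adjusted p from 0.0636 to 0.0793). With the replicate number as a block, Creb1 (0.81, edgeR adjusted p = 0.0379) and Sik1 (-0.71, edgeR adjusted p = 0.0200) were called besides Crtc2, Sik2 and Sik3.

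In mice labelled Crtc1-/-, Sik2 was 22.5-fold higher in eWAT than in liver (log2 difference 4.49, standard error 0.45, edgeR adjusted p = 0.00912) and 4.44 above the median, and no other of the 9 genes was called, against 18.5% of 13458 genes. With library-size scaling Sik2 remained highest of the 9, at 4.41 above the median, and Crtc2, Crtc3, Creb1 and Sik3 were also called. Leaving out either liver library labelled Crtc1-/- ended the Sik2 call, with adjusted p up to 0.122. The liver and eWAT groups used here also enter the genotype comparisons, so these are not separate evidence.

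**Figure D4:**
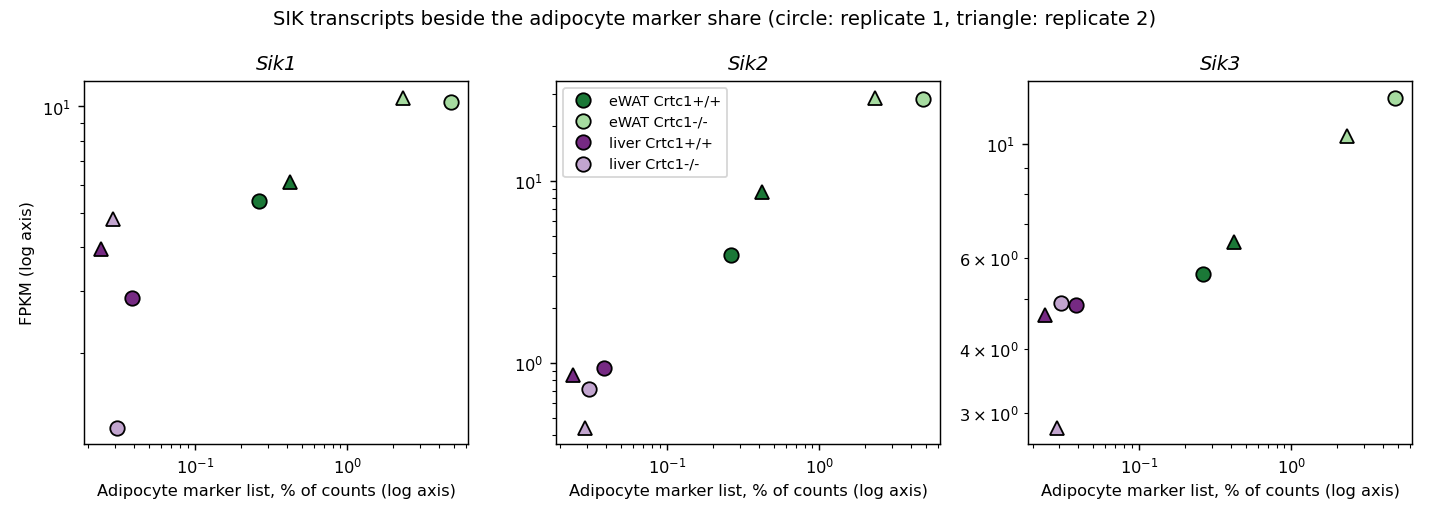
FPKM of Sik1, Sik2 and Sik3 (vertical log axes) against the share of counts held by the 12 adipocyte markers (horizontal log axes) in the 8 libraries. The 4 eWAT libraries, at 0.264% to 4.78% adipocyte markers, are those with the most Sik2, and the 2 labelled Crtc1-/- have both the highest shares and the highest level of each SIK. FPKM are scaled to the library total, which raises the median gene in eWAT over liver, so levels are not comparable between the tissues.

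Of 61 other genes of the pathway on lists, 56 were tested in eWAT, and 3 rose and 1 fell at an adjusted p under 0.05 (7.14%, against 12.2% of all genes). All 3 that rose were among 17 tested CREB target genes, whose median log2 fold change was 0.75, with 12 estimates above 0. Others lay below 0, among them Kiss1 at -2.40, Gem at -1.32 and Rgs2 at -1.21 (edgeR adjusted p = 0.0705, 0.182 and 0.143). G6pc, at 4.43, was uneven in the eWAT libraries labelled Crtc1-/-. It was at 0.660 CPM in replicate 1 and at 72.0 CPM in replicate 2, the library rich in hepatocyte markers. Pck1, the gluconeogenic and glyceroneogenic enzyme, was at 2709 and 3332 CPM in the eWAT libraries labelled Crtc1-/- and at 67.8 and 176 CPM in the eWAT libraries labelled Crtc1+/+ (log2 fold change 4.63, standard error 0.69, edgeR adjusted p = 0.0260). It is abundant in fat cells and in hepatocytes, and the part of either cell type in its difference was not tested. Without the library rich in hepatocyte markers the log2 fold change of Pck1 was 4.41.

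Dusp1, a phosphatase of MAP kinases, was at 168 and 205 CPM against 14.4 and 7.57 CPM (log2 fold change 4.09, standard error 0.44, edgeR adjusted p = 0.0172). Per1, a clock repressor, was at 176 and 118 CPM against 50.9 and 48.9 CPM (log2 fold change 1.56, standard error 0.32, edgeR adjusted p = 0.0434). Neither gene overlapped between the groups. Fits with 1 eWAT library left out leave 1 in its group. Their log2 fold changes were 4.12 to 5.50 for Pck1, 3.72 to 4.64 for Dusp1 and 1.25 to 1.79 for Per1. Not every such fit kept the calls, and the calls over all genes moved widely too. With the replicate number as a block none of these genes was called (edgeR adjusted p from 0.0543 to 0.0686). The Per1 call was also lost with library-size scaling (1.28, edgeR adjusted p = 0.101). It was lost with limma on log2(FPKM + 1) (1.27, adjusted p = 0.0575) and log2(FPKM + 0.1) (1.33, adjusted p = 0.0858), while 7 of 14 alternatives kept it.

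Among 10 other CREB and ATF factors, Creb3l2, a membrane-bound factor of secretory cells, fell. It was at 57.5 and 57.9 CPM in the eWAT libraries labelled Crtc1-/- and at 147 and 240 CPM in the eWAT libraries labelled Crtc1+/+ (log2 fold change -1.75, standard error 0.35, edgeR adjusted p = 0.0421). With 1 of the 4 eWAT libraries left out, which leaves 1 in its group, the log2 fold change was -2.04 to -1.32. No such fit kept the call, and the calls over all genes moved widely too. The call was also lost without the epididymis marker genes (-1.70, edgeR adjusted p = 0.0514). It was lost with no expression filter (-1.69, edgeR adjusted p = 0.0537). The replicate block (edgeR adjusted p = 0.0702) and limma on log2(FPKM + 1) or log2(FPKM + 0.1) (adjusted p = 0.0554 and 0.0725) lost it as well. In all, 5 of 14 alternatives kept it.

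Of 29 genes tested in the other 7 lists 0 were called by edgeR in eWAT, and 7 had an unadjusted p under 0.05, against 12.2% and 33.3% of all genes. All 5 calcineurin genes, subunits of the phosphatase that frees CRTCs from phosphorylation, had estimates below 0, with a median of -0.68, and Ppp3ca was at 28.1 and 40.1 CPM against 45.2 and 63.7 CPM. Of the 7 genes of 14-3-3 proteins 4 had estimates above 0, and Ywhae was at 229 and 246 CPM against 350 and 453 CPM. Of the 5 genes of the LKB1 complex, which activates SIKs, 2 had estimates above 0, and Stk11, which encodes LKB1, was at 192 and 193 CPM against 109 and 86.8 CPM.

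The rest were 4 coactivators, 4 class IIa histone deacetylases that SIKs also phosphorylate, 3 genes of AMPK catalytic subunits and MARK2, and Cop1, a ubiquitin ligase of CRTC2. The coactivator Nono was at 214 and 196 CPM in the eWAT libraries labelled Crtc1-/- and at 255 and 288 CPM in the eWAT libraries labelled Crtc1+/+. Hdac7 was at 153 and 90.1 CPM against 79.3 and 71.5 CPM. Mark2 was at 98.0 and 67.6 CPM against 72.4 and 69.7 CPM. In liver 49 of the 61 genes were tested and 0 were called with edgeR and 8 had an unadjusted p under 0.05, against 0.0854% and 17.3% of all genes. There 14 CREB targets had a median log2 fold change of 0.35. Liver Pck1 measured 1349 and 1037 CPM labelled Crtc1-/- and at 384 and 2042 CPM labelled Crtc1+/+, so the wild-type pair enclosed the other.

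The count and the FPKM of a gene together give the transcript length that the counting tool used in a library, which depends on the isoforms it assigned reads to. For Crem, a gene with 39 annotated transcripts, this length was 2254 nt in eWAT Crtc1+/+ replicate 1 and 1920 to 2029 nt in the other 7 libraries. The ratio of 1.17 between the longest and shortest value was above that of 93.6% of 5843 genes with at least 2 FPKM in every library, whose median ratio was 1.02. Sik1 sat at the other end, at 4357 to 4377 nt. For Crtc1 the length was 5329 to 5546 nt in libraries labelled Crtc1-/- and 5136 to 5612 nt in those labelled Crtc1+/+, so the groups overlapped, and a deletion that the annotation does not hold would not show in it. For Sik2 it was 6924 to 7279 nt, longer than the longest GENCODE transcript of 5369 nt.

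**Figure D5:**
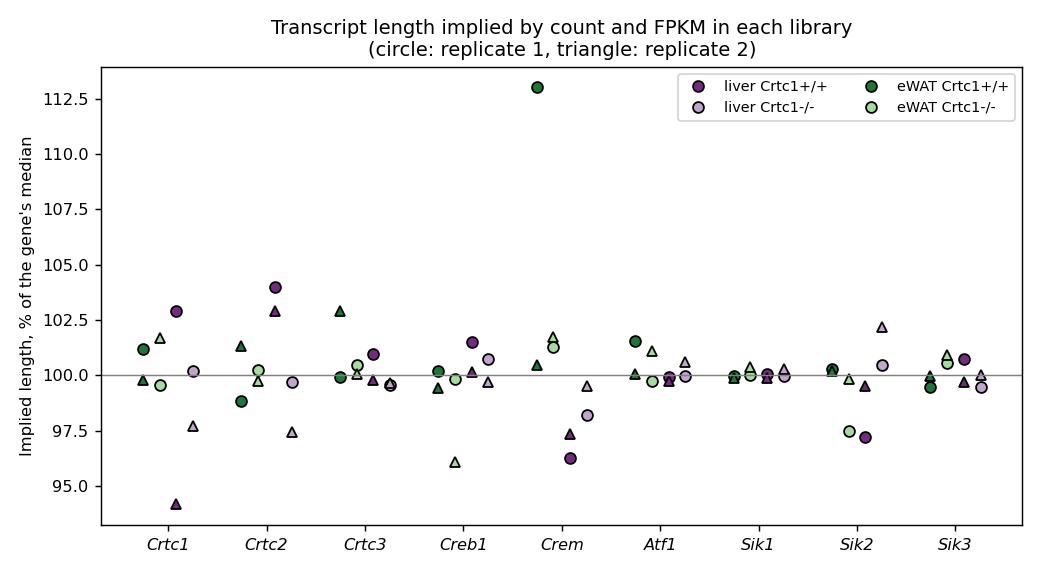
Transcript length implied by the count and the FPKM of each gene in each library, as a percentage of the median of that gene over 8 libraries (vertical axis). Circles are replicate 1 and triangles replicate 2. Crem in eWAT Crtc1+/+ replicate 1, at 2254 nt, lies farthest from its median, and the Sik1 points nearly coincide.

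Among 7764 abundant genes, those most like Sik2 over the 8 libraries were Pcnx and Nfe2l1, with Pearson correlations of log2 CPM of 0.99 and 0.99. Crtc2 was most like Ormdl3 (0.98) and Kctd20 (0.98), Creb1 most like Strn3 (0.98) and Kmt2c (0.98), and Atf1 most like Rnf128 (0.98) and Tram1 (0.98). Crtc1 had its closest patterns in Pltp (0.93) and Socs2 (0.91), and Sik1 in Rbfox2 (0.92) and Lnx2 (0.89). Crtc3 was closest to Cnnm3 (0.96) and Sun2 (0.95), Crem to Ntmt1 (0.93) and Mzt2 (0.92), and Sik3 to Ogfr (0.96) and Ctif (0.96). The 8 points are 4 groups of 2 libraries on 1 TMM scale, so these values describe a shared order of groups. Between members, Sik3 and Crtc2 had the highest correlation (0.88) and Crtc2 and Atf1 the lowest (-0.86).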

How the data were processed

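RNA-seq of liver and eWAT was used from 8 libraries, 2 in each group of tissue and genotype. The authors deposited estimated counts per gene, not normalized, and FPKM. Per the labels, HISAT and Bowtie2 were run against GRCm38.p6, with roles and versions not given in the sources used here, and sequencing was by BGI. Groups and replicate numbers came from the sample labels. Between 5.44% and 9.98% of the counts of a library were not whole numbers, and all were rounded.

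Genes were filtered by filterByExpr, scaled by TMM and tested with edgeR 4.0.16 (quasi-likelihood, R 4.3.3) within each tissue for the genotype, within each genotype for the tissue, and over all 8 libraries for the interaction, and p-values were adjusted by Benjamini-Hochberg across the genes tested, with calls at 0.05. The study used limma after normalizeBetweenArrays, so limma 3.58.1 on quantile-normalized log2(FPKM + 1) was an alternative, as were DESeq2 1.42.0, RLE and library-size scaling, other filters, a pseudocount of 0.1, removal of epididymis genes, the replicate block, 1 fit of 8 libraries and each library left out in turn. The scaling on adipocyte markers, and the alternatives for single genes in the tissue and interaction comparisons and for pathway genes, were chosen after seeing the data. The fits were tested on simulated data.

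The floor of 3 counts equals 0.152 to 0.181 CPM, below every value of the 9 genes. The p-values rest on 2 libraries a group, in fits made across all genes. Coordinates came from GENCODE on GRCm38 and promoters from RefSeq. The pathway genes named were those called between genotypes and otherwise up to 3 of the highest mean CPM in a list. For each of the 9 genes the 2 most correlated genes with a mean log2 CPM of at least 3 were named, with a prior count of 2. The 9 genes, the lists and the tests were chosen with earlier results of these data known.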

Additional observations from a re-analysis of the deposited data

Results flagged for a closer look

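The genotype difference of Sik2 was larger in eWAT than in liver by 3.04 on the log2 scale (standard error 0.62, edgeR adjusted p = 0.0354). It was brought up because a test of the difference between the tissues passed the threshold. Sik2 was higher in both eWAT libraries labelled Crtc1-/- than in both labelled Crtc1+/+ (199 and 249 against 24.7 and 56.2 CPM) and lower in both liver libraries labelled Crtc1-/- (5.14 and 3.09 against 6.52 and 6.24 CPM). The liver difference alone did not pass the test (log2 fold change -0.63, edgeR adjusted p = 0.376). The adipocyte marker share moved with the eWAT labels, from 0.264% and 0.419% to 4.78% and 2.30%, and not in liver, where it was 0.0243% to 0.0386%. Its part in the Sik2 difference was not tested.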

How the results depend on the processing

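The 9 genes gave 253 values under alternatives in the 2 genotype comparisons, of which 8 changed sign and 15 crossed the threshold. In eWAT the count of the 9 genes called, 1 with edgeR and TMM, was 4 with DESeq2, 2 with RLE scaling, 2 without the epididymis marker genes, 3 with all 8 libraries in one fit, 0 with limma on log2(FPKM + 0.1), and 0 to 1 when each library was left out. Past the threshold of the study the count of 3 was 1 with library-size scaling, 1 with limma on log2(FPKM + 0.1), and 0 to 1 when each library was left out. In liver leaving out a library gave 0 to 1 called and 0 to 2 past the threshold of the study. Between tissues in Crtc1+/+ the count of 3 was 8 with library-size scaling and 0 to 4 with a library left out, and in Crtc1-/- the count of 1 was 2 with DESeq2, 5 with library-size scaling, 2 with all 8 libraries in one fit and 0 to 1 with a library left out. For the interaction the count of 1 was 3 with DESeq2, 2 with RLE scaling, 3 with limma on log2(FPKM + 1), 2 with limma on log2(FPKM + 0.1) and 0 to 1 with a library left out. Between tissues in Crtc1+/+, library-size scaling called 12132 of all 15034 genes, against 8985 with TMM, so the rise to 8 was not particular to the 9 genes. The causes of these changes were not tested, beyond the fewer libraries of a fit with one left out.

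Liver and eWAT libraries come from the same mice by the methods, but no label says that equal numbers mark 1 mouse, and the deviations of same-numbered libraries from the group means correlated at 0.0086 to 0.152, too low to pair them. With the replicate number as a block, 0 genes were called in eWAT and 1 passed the threshold of the study, 5 were called between tissues in Crtc1+/+ and 2 for the interaction, and the liver and Crtc1-/- tissue counts did not move. The block gave 0 calls over all genes in eWAT and 82 in liver, against 1875 and 10.

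Some values changed sign. In eWAT, Creb1 was -0.14 and Crem -0.047 with library-size scaling, Crem was -0.060 to 0.69 and Creb1 -0.086 to 0.45 with a library left out, and Sik2 was -0.97 scaled on the adipocyte list, which put the median of all genes at -3.69 and Sik2 2.72 above it. In liver, with a library left out, Sik1 was -1.51 to 0.43 and Crtc3 -0.61 to 0.17. Between tissues in Crtc1+/+, library-size scaling gave Crtc2 0.88, Crtc3 1.17, Crem 1.19, Sik1 0.76 and Sik3 0.34. There limma gave Crtc1 -0.18, Creb1 -0.32 and Atf1 -0.36 with a pseudocount of 1 and -0.24, -0.64 and -0.50 with 0.1, and Crem was -0.89 to 0.037 with a library left out. In Crtc1-/-, library-size scaling gave Crtc1 1.06, Crem 0.60 and Atf1 0.59, limma gave Creb1 -0.17 and -0.26, and a library left out gave Crtc1 -0.46 to 0.13 and Creb1 -0.14 to 0.68. For the interaction limma gave Creb1 0.15 and 0.36 and Crem 0.17 and 0.34, and Crem was -0.67 to 0.13 with a library left out.

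Over all genes, the calls in eWAT were 1875 with edgeR, 4620 with DESeq2, 3861 with 8 libraries in one fit and 0 to 3073 with a library left out. In liver they were 10, against 311 with DESeq2, 301 with no filter, 0 with limma and 0 with all 8 libraries in one fit, and 1 to 1507 with a library left out. Between tissues in Crtc1+/+ the 8985 calls were 5262 to 9534 with a library left out. In Crtc1-/- the 2485 calls were 6510 with DESeq2, 5721 with library-size scaling, 958 with limma on log2(FPKM + 1), 4330 with all 8 libraries, 1296 with the block and 0 to 6512 with a library left out. For the interaction the 1081 calls were 2056 with DESeq2, 705 with library-size scaling, 2533 and 2390 with limma, 1746 with the block and 0 to 2261 with a library left out. With 2 libraries a group, a call near the threshold turns on single libraries, and a lone library left in a group was assumed to vary like the others.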
